A study of Mus musculus with 24 samples.

Results

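*Ankrd63*, *Xdh*, *Ahsg* and *Serpina3n* are 4 genes that stood among the largest rises of the *Xinβ* KO mouse heart, and they are described here in every library of the series. They were chosen by name for that rise, so their differences between *Xinβ* KO and WT hearts without active YAP are given as a description, with no test. All 4 were found by symbol among the 15667 genes listed for uninjected hearts and the 15327 listed for injected hearts, 16978 different genes in all. By log2 difference between *Xinβ* KO and WT hearts, over all listed genes, the 4 held places 3, 4, 5 and 19 in uninjected hearts and places 1, 14, 17 and 19 in *GFP*-injected hearts.

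Xinβ, the product of *Xirp2*, is an actin-binding protein of the cardiomyocyte's intercalated disc. RNA was sequenced from hearts of mice at postnatal day 7.5, apex tissue by the labels and ventricles by the study's methods, in 24 libraries, 4 in each of 6 groups. Uninjected *Xinβ* KO and WT hearts made up 8 libraries, read as 50 bp single ends. The other 16, read as 150 bp paired ends, came from *Xinβ* KO and WT mice given an adeno-associated virus (AAV9) at postnatal day 1. The virus carried either *GFP*, the control, or *YAP* S127A, a human YAP whose inhibitory Hippo phosphorylation site is mutated, which gave 4 groups called KO-GFP, WT-GFP, KO-YAP and WT-YAP. Both transgenes were driven by a cardiac troponin T promoter, so they act in cardiomyocytes, whereas *Xinβ* was lost throughout the body through a germline cassette that replaced part of the gene. Whether reads of the human transgene were counted for the mouse *Yap1* gene was not tested. The paper states that controls were littermates. The labels do not say which hearts were of which litter, so litter could not enter the fits and p-values measure the spread between these samples.

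The values are CPM, the reads of a gene scaled by the size of its library. Libraries held 20490875 to 31154155 reads on listed genes in uninjected hearts and 15015038 to 19444404 in injected hearts. The targeted gene, *Xirp2* (ENSMUSG00000027022), lay between 0 and 0.972 CPM in all *Xinβ* KO libraries and between 56.0 and 168 CPM in all WT libraries. All 8 cardiomyocyte markers were listed, and their summed level ran from 44934 to 77634 CPM. *Ddx3y*, a gene of the Y chromosome, was low in uninjected *Xinβ* KO replicate 4 (3.68 CPM), in KO-GFP replicate 2 (0.588 CPM), in KO-YAP replicates 3 and 4 (0.915 and 0.229 CPM), in WT-GFP replicate 4 (0.110 CPM) and in WT-YAP replicate 3 (8.61 CPM), and lay between 21.7 and 88.9 CPM in the other libraries. The labels do not give the sex of a heart. The paper states that each RNA-seq group mixed male and female samples equally. In uninjected WT hearts, however, *Ddx3y* was at 39.5 to 49.6 CPM in every replicate. By the chi-square per gene between replicates, uninjected *Xinβ* KO replicate 1 stood apart, at 105.9 to 121.3 against the other 3 where these were at 17.7 to 43.6 among themselves, and so did KO-GFP replicate 2, at 63.8 to 90.4 where the others were at 12.4 to 40.0.

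The 4 genes have unlike functions. *Xdh* encodes xanthine oxidoreductase, the enzyme that turns hypoxanthine into xanthine and xanthine into urate, the last steps of purine breakdown in many tissues, and its oxidase form releases reactive oxygen. *Ahsg* encodes fetuin-A, a plasma glycoprotein of the cystatin superfamily that is made chiefly by the liver and keeps calcium phosphate from precipitating. *Serpina3n* encodes a secreted serine protease inhibitor of the acute-phase response, which acts on proteases of leukocytes such as granzyme B. *Ankrd63* encodes a protein with ankyrin repeats, a fold that binds other proteins, and little is known of its part in the heart.

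In GRCm38, *Ankrd63* (ENSMUSG00000078137) is a single-exon gene on the minus strand of chromosome 2, from 118699103 to 118703963. *Xdh* (ENSMUSG00000024066) lies on the minus strand of chromosome 17 from 73883895 to 73950196, with 41 separate exon blocks. *Ahsg* (ENSMUSG00000022868) lies on the plus strand of chromosome 16 from 22891277 to 22899449, with 8 exon blocks, and *Serpina3n* (ENSMUSG00000021091) on the plus strand of chromosome 12 from 104406729 to 104414329, with 5. The antisense gene *Gm30505* overlaps *Ahsg*, and it was not listed in either set. The libraries were strand-specific, but how strand was used in counting is not given in the sources used here.

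Since the 4 genes had like patterns, the bases around their start sites are shown, 250 before and 50 after it. RefSeq's GRCm38.p6 table held such a window for 3 of the 4 genes, all but *Xdh*. The windows read 5′ to 3′ on the gene's strand, at chr2:118703914-118704213 (minus) for *Ankrd63*, chr16:22891765-22892064 (plus) for *Ahsg* and chr12:104406458-104406757 (plus) for *Serpina3n*. The RefSeq start site is the first base of the GENCODE gene for *Ankrd63*, lies 21 bp before it for *Serpina3n* and lies 738 bp inside the gene for *Ahsg*, so the *Ahsg* window is around an internal start by that annotation. Capitals mark every match, on either strand, to the glucocorticoid receptor half-site AGAACA, the STAT motif TTCNNNGAA, the C/EBP motif TTNNGCAA, the TEAD motif GGAATG and the TATA box TATAAA.

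Ankrd63: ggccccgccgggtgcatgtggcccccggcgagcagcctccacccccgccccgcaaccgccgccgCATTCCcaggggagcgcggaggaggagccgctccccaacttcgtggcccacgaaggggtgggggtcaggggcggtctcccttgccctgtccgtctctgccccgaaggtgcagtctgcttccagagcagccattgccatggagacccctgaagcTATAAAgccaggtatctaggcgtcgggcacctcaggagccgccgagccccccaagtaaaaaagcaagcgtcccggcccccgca
Ahsg: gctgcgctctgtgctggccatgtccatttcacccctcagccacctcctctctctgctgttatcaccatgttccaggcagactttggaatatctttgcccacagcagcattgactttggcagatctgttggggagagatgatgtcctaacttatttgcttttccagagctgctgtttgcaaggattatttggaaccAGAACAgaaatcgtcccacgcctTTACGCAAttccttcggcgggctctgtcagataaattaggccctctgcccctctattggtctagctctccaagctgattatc
Serpina3n: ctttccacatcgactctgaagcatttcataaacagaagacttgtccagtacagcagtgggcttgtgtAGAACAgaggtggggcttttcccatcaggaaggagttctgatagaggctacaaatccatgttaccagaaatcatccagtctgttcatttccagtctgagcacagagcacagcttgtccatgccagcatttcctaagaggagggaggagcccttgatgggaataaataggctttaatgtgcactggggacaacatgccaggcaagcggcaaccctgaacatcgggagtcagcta

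The half-site AGAACA occurred in the windows of *Ahsg* and *Serpina3n*, at positions -55 and -183 from the RefSeq start site, and is held by 18.97% of the 32851 windows in the table. *Ahsg* also had a C/EBP match, which 10.80% of windows hold. *Ankrd63* had a TEAD match on the opposite strand, as 14.66% of windows do, and a TATA box at position -33, as 13.62% do. The STAT motif, held by 8.30% of windows, was in none of the 3. The *Ankrd63* window was 69.7% G and C, against 49.7% for *Ahsg*, 48.7% for *Serpina3n* and a median of 52.7% over all windows. No single motif of the 5 was shared by the 3 windows. A match is no more than these letters in these windows.

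In uninjected hearts, each of the 4 genes was higher in every *Xinβ* KO heart than in any WT heart, a state that 8.01% of the 15598 genes tested had. The 4 *Xinβ* KO replicates held 18.5, 19.1, 35.6 and 11.7 CPM of *Ankrd63*, and the 4 WT replicates 1.96, 2.22, 1.15 and 0.989 CPM. The ratio of the means was 13.5, and the log2(CPM + 1) difference was 3.03 (95% interval 2.35 to 3.72). *Xdh* was at 16.2, 41.9, 64.6 and 18.6 CPM in *Xinβ* KO hearts and at 2.39, 2.81, 1.38 and 3.21 CPM in WT hearts. Its ratio of means was 14.4 and its log2 difference 3.21 (2.28 to 4.14). Here the *Xinβ* KO hearts formed a higher and a lower pair, with replicates 2 and 3 above replicates 1 and 4.

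*Ahsg* was at 15.4, 14.1, 23.7 and 7.31 CPM in uninjected *Xinβ* KO hearts and at 1.27, 2.08, 2.39 and 2.23 CPM in WT hearts. The ratio was 7.6 and the log2 difference 2.34 (1.67 to 3.02), the smallest of the 4. *Serpina3n* was at 6.32, 10.9, 46.0 and 5.23 CPM in *Xinβ* KO hearts and at 0.290, 0.729, 0.322 and 0.783 CPM in WT hearts, where it rested on 7 to 21 reads per library. The ratio was 32.2 and the log2 difference 3.06 (1.81 to 4.31), with the widest interval of the 4. Its *Xinβ* KO mean of 17.1 ± 19.4 CPM (SD, n = 4) was carried by replicate 3, and without that library the ratio was 14.1 and the log2 difference 2.43. Because 1 CPM is added before the logarithm, the differences understate those of genes this low.

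**Figure D1:**
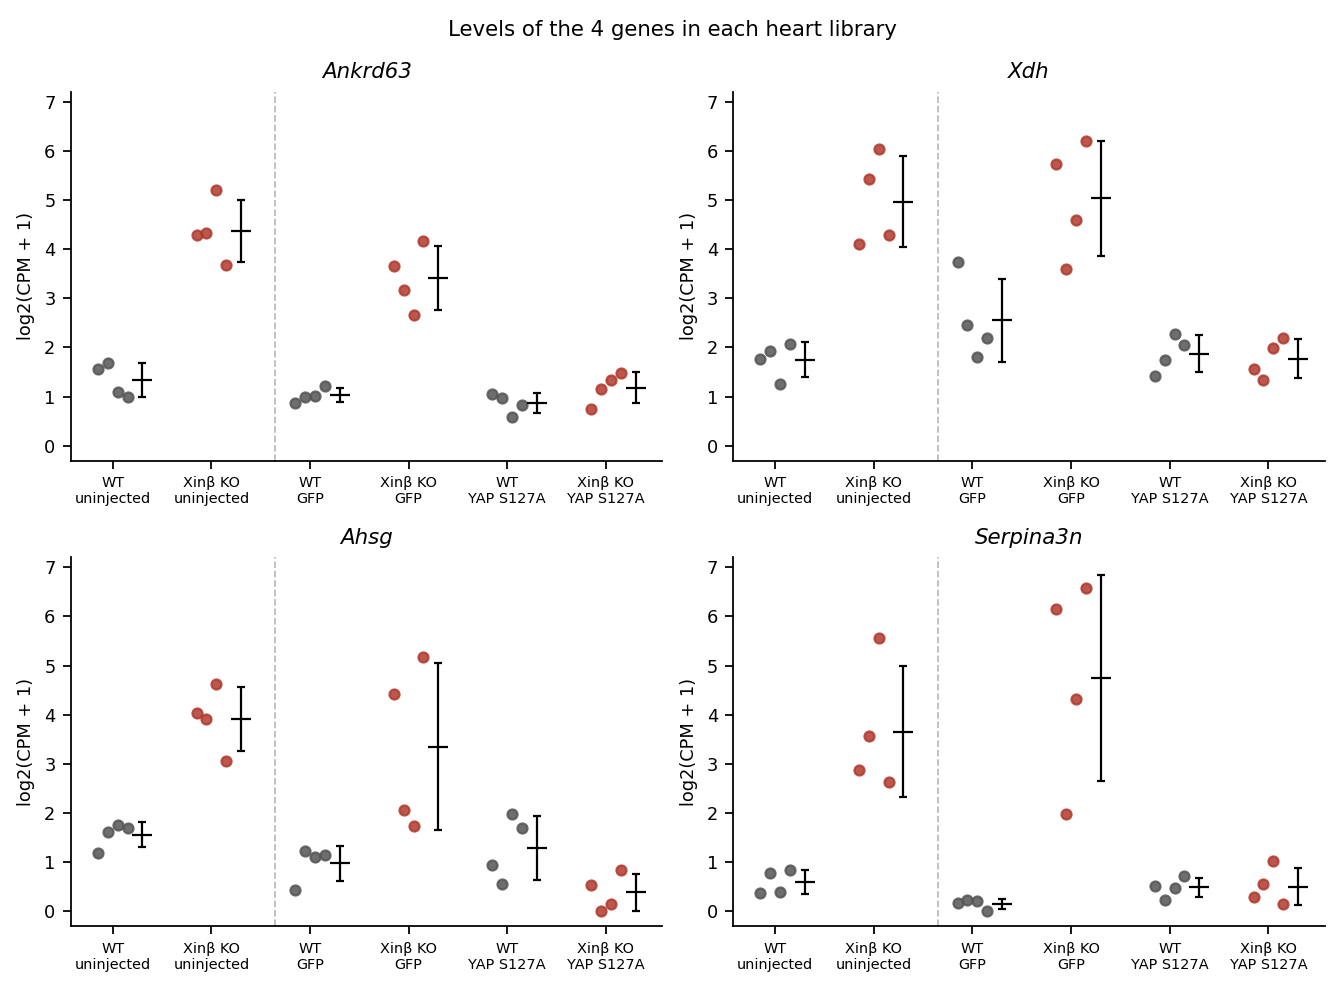
Level of each gene, log2(CPM + 1), in every library, with red points for *Xinβ* KO hearts, grey points for WT hearts, and a black bar and whiskers for the mean ± SD of the 4 libraries of a group; uninjected and injected hearts, either side of the dashed line, were normalized separately. The means of all 4 genes were highest in *Xinβ* KO hearts without active YAP. Of the injected WT hearts, 2 reached into the range of KO-GFP hearts, WT-GFP replicate 1 at 12.4 CPM of *Xdh* and WT-YAP replicate 3 at 2.93 CPM of *Ahsg*.

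In *GFP*-injected hearts the 4 genes were again higher in *Xinβ* KO than in WT hearts, and 3 of them did not overlap between the groups, as was so for 7.32% of the 14597 genes tested. *Ankrd63* was at 11.7, 8.04, 5.32 and 16.97 CPM in KO-GFP hearts and at 0.837, 1.00, 1.03 and 1.31 CPM in WT-GFP hearts (ratio 10.0, log2 difference 2.39, 95% interval 1.86 to 2.92). *Ahsg* was at 20.5, 3.20, 2.34 and 35.0 CPM against 0.359, 1.34, 1.14 and 1.21 CPM (ratio 15.1, log2 difference 2.38, 1.14 to 3.61). *Ahsg* split the KO-GFP hearts into a high pair, replicates 1 and 4, and a low pair that lay just above the WT-GFP hearts. Without replicate 4 its ratio was 8.58 and its log2 difference 1.77.

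*Xdh* was at 52.5, 11.1, 23.1 and 72.6 CPM in KO-GFP hearts and at 12.4, 4.52, 2.50 and 3.56 CPM in WT-GFP hearts. WT-GFP replicate 1 thus lay above KO-GFP replicate 2, and *Xdh* was the member whose groups overlapped (ratio 6.92, log2 difference 2.48, 1.47 to 3.49). Without that WT heart the ratio was 11.3 and the log2 difference 2.88. WT-GFP replicate 1 also held 13.4 CPM of *Serpina3g*, the nearest listed neighbour of *Serpina3n*, and 3.94 CPM of the haptoglobin gene *Hp*, the highest WT-GFP values of both. *Serpina3n*, *Ahsg* and *Ankrd63* were not raised in it.

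*Serpina3n* was at 69.7, 2.94, 18.9 and 94.5 CPM in KO-GFP hearts, a 32.1-fold range within the group. In WT-GFP hearts it was at 0.120, 0.167, 0.163 and 0 CPM, from 0 to 3 reads per library, so no ratio is given. It passed 1 CPM in 5 of the 16 injected libraries and fell below the filter of 8, so its differences among injected hearts come from the fit over all listed genes. The log2 difference of 4.60 (95% interval 3.22 to 5.99) was the largest of all 15327 listed genes. With KO-GFP replicate 4 left out, it was 3.99. All 4 genes passed the filter in uninjected hearts and 3 of 4 in injected hearts, and *Ankrd63* and *Serpina3n* in the former and *Ankrd63* and *Ahsg* in the latter reached it only with the *Xinβ* KO libraries that held them high.

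Next to the 4 genes in the order of rises stood *Hif3a* (log2 difference 3.33) just above *Xdh* in uninjected hearts and *Serpina3g* (3.02) just below *Ankrd63*, while *Ahsg* stood between *Arrdc2* (2.35) and *Hp* (2.34). In *GFP*-injected hearts *Serpina3n* was followed by *Slc10a6* (3.18), and *Xdh* stood between *Timp4* (2.53) and *Serpina3g* (2.45). *Ankrd63* stood between *S100a8* (2.41) and *Dpep1* (2.39), and *Ahsg* between *Dpep1* and *Fmo2* (2.33). Compared per kilobase of exon, *Serpina3n* had the highest mean of the 4 in *Xinβ* KO hearts, 8.29 CPM per kb uninjected and 22.5 under *GFP*. *Ahsg* followed with 6.89 and 6.94 CPM per kb, while *Ankrd63* (4.37 and 2.16) and *Xdh* (3.85 and 4.34) were lower. The uninjected place of *Serpina3n* rested on replicate 3, without which its mean was 3.62 CPM per kb and that of *Ahsg* 5.59. In KO-GFP replicate 2 *Serpina3n*, at 1.425 CPM per kb, was below *Ankrd63* (1.654) and *Ahsg* (1.458). In KO-GFP replicate 3 *Ahsg*, at 1.065 CPM per kb, was the lowest of the 4. Without KO-GFP replicate 4 the means under *GFP* were 14.8 CPM per kb for *Serpina3n*, 3.95 for *Ahsg*, 3.15 for *Xdh* and 1.72 for *Ankrd63*.

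The *Xinβ* KO hearts did not carry the 4 genes at an even level, and the hearts that were high for one gene were mostly high for the others. Among KO-GFP hearts, replicate 4 was highest and replicate 1 second for all 4 genes. The lowest heart was replicate 3 for *Ankrd63* and *Ahsg* and replicate 2 for *Xdh* and *Serpina3n*. Among uninjected *Xinβ* KO hearts, replicate 3 was highest for all 4 genes, and replicate 4 was lowest for all but *Xdh*, for which replicate 1 was lowest. The highest heart exceeded the lowest by 3.03-fold for *Ankrd63*, 3.98-fold for *Xdh*, 3.24-fold for *Ahsg* and 8.79-fold for *Serpina3n* in uninjected hearts, and by 3.19-, 6.53-, 14.9- and 32.1-fold under *GFP*.

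**Figure D2:**
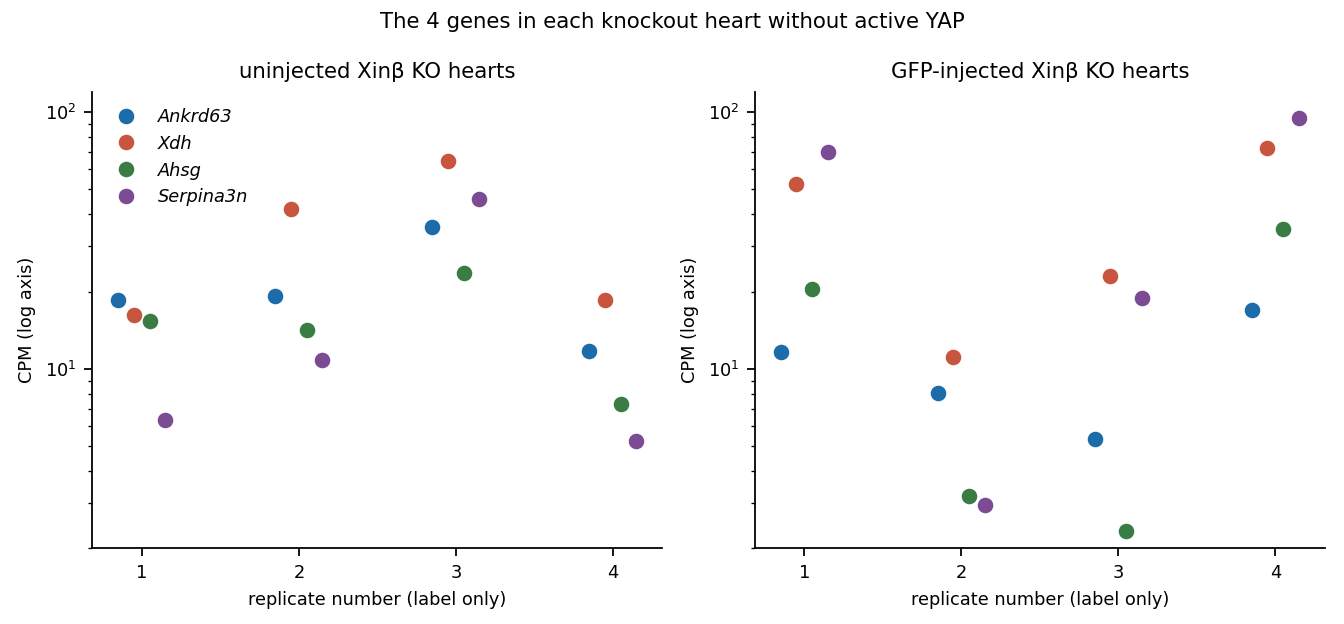
CPM, on a log axis, of the 4 genes in each uninjected (left) and *GFP*-injected (right) *Xinβ* KO heart, where replicate numbers are labels without order and each coloured point is 1 gene in 1 library. Replicate 3 of the uninjected hearts and replicates 1 and 4 of the *GFP*-injected hearts hold the highest values, with *Serpina3n* ranging from 2.94 to 94.5 CPM under *GFP*.

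Of the *Xinβ* KO hearts without active YAP, the low-*Ddx3y* ones were lowest for some genes, uninjected replicate 4 for 3 of them and KO-GFP replicate 2 for 2. Under active YAP this was otherwise. There the low-*Ddx3y* replicate 4 was highest for *Ankrd63*, *Xdh* and *Ahsg* but lowest for *Serpina3n*, for which the low-*Ddx3y* replicate 3 was highest. With the *Ddx3y* level as a covariate, an alternative chosen after seeing the data, the uninjected log2 differences were 3.37 for *Ankrd63*, 3.63 for *Xdh*, 2.71 for *Ahsg* and 3.65 for *Serpina3n*, each larger than without it. The same differences under *GFP* were 2.39, 2.47, 2.37 and 4.56. Without the library that stood apart from its replicates, the differences were 3.06, 3.50, 2.302 and 3.32 in uninjected hearts and 2.47, 2.96, 2.801 and 5.53 under *GFP*, in the same order of genes.

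Markers of other cell types were set beside these levels. Of 14 hepatocyte markers, the uninjected libraries listed *Trf* and the injected libraries *Trf* with *Ttr*, while *Alb*, *Apoa1* and 10 others were not listed in either set, although *Ahsg* is known chiefly as a liver gene. *Trf*, which encodes transferrin, had nearly equal means in uninjected *Xinβ* KO and WT hearts (9.36 CPM in each), but it was at 8.45, 6.65, 16.7 and 5.66 CPM in the 4 *Xinβ* KO replicates, highest in the heart that was also highest for *Ahsg*. *Trf* and *Ttr* together were at 16.02, 2.35, 7.02 and 19.4 CPM in KO-GFP replicates 1 to 4, high in the pair that was high for *Ahsg*, against 7.11 to 11.1 CPM in WT-GFP and 9.41 to 13.7 CPM in KO-YAP hearts. Of 10 neutrophil markers, 5 were listed, without *Ly6g*, *Elane*, *Mpo*, *Camp* and *Cxcr2*, and 4 of the 5 (*Ltf*, *Mmp8*, *Ngp* and *S100a8*) reached the filter in uninjected hearts only with the *Xinβ* KO libraries. Their sum was 47.8 to 106 CPM in uninjected *Xinβ* KO against 3.73 to 9.86 in WT hearts, 32.0 to 57.3 in KO-GFP against 5.76 to 12.4 in WT-GFP hearts, and 3.95 to 12.8 CPM in KO-YAP hearts. The sum of 7 fibroblast markers was lower in the same hearts, 1557 to 2348 against 2936 to 3084 CPM uninjected and 1365 to 2216 against 2670 to 3170 CPM under *GFP*, and 2809 to 3391 CPM in KO-YAP hearts. Of 6 macrophage markers 4 were called lower in uninjected *Xinβ* KO hearts and 4 under *GFP*, and 4 higher in KO-YAP than in KO-GFP hearts, where 3.46%, 7.22% and 7.85% of all genes tested were called in these directions. The uninjected count was 2 without *Xinβ* KO replicate 2, and *C1qa* and *Mrc1* lost their uninjected calls with 5 and 6 of the 8 libraries left out in turn. The sum of the 6 was 44.6 to 85.5 CPM in uninjected *Xinβ* KO against 80.6 to 93.6 in WT hearts, 50.9 to 94.6 in KO-GFP against 96.1 to 149 in WT-GFP hearts, and 92.0 to 124 CPM in KO-YAP hearts. Mast cell markers, 2 of 4 listed uninjected and all 4 under *GFP*, summed to 11.6 to 27.7 against 35.9 to 37.6 CPM and to 10.4 to 28.5 against 33.1 to 42.5 CPM, with 26.9 to 38.3 CPM in KO-YAP hearts.

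The 5 endothelial markers were likewise lower in sum, 968 to 1248 against 1357 to 1492 CPM uninjected and 1091 to 1157 against 1232 to 1382 CPM under *GFP*, with 1260 to 1314 CPM in KO-YAP hearts. The 1 adipocyte marker listed of 5 was higher, 883 to 1648 against 649 to 749 CPM and 996 to 1542 against 703 to 864 CPM, with 664 to 834 CPM in KO-YAP hearts. The erythroid sum overlapped in uninjected hearts and was 377 to 722 CPM in KO-GFP against 921 to 2725 CPM in WT-GFP hearts, with 538 to 608 CPM in KO-YAP hearts. The sum of 5 mural cell markers likewise overlapped in uninjected hearts and was 1176 to 1498 CPM in KO-GFP against 1638 to 1815 CPM in WT-GFP hearts, with 1791 to 2316 CPM in KO-YAP hearts. *Eno2*, the 1 neuronal marker of 4 listed uninjected, was at 1.71 to 2.17 against 0.652 to 1.15 CPM, and the 2 listed under *GFP* overlapped. The cardiomyocyte sum was 61858 to 77634 CPM in uninjected *Xinβ* KO and 53838 to 60805 CPM in WT hearts, and 54491 to 63379 CPM in KO-GFP and 45130 to 58233 CPM in WT-GFP hearts. It was 50628 to 53863 CPM in KO-YAP hearts, below all KO-GFP hearts, and 4 of the 8 markers were called lower between these groups, as were 6.92% of all genes tested. Whether the share of any of these cell types has a part in the levels of the 4 genes, or hepatocyte RNA in that of *Ahsg*, was not tested, and in bulk tissue fewer cells of a type cannot be told apart from less RNA per cell.

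Under active YAP each of the 4 genes was lower in every *Xinβ* KO heart than in any KO-GFP heart, and overlapped with both injected WT groups. *Ankrd63* was at 0.677, 1.23, 1.54 and 1.77 CPM in KO-YAP replicates 1 to 4, all below the lowest KO-GFP heart at 5.32 CPM. *Xdh* was at 1.97, 1.52, 2.97 and 3.60 CPM, below the lowest KO-GFP heart at 11.1 CPM. *Ahsg* was at 0.451, 0, 0.114 and 0.801 CPM, where 1 library held no read of it, and the lowest KO-GFP heart was at 2.34 CPM. *Serpina3n* was at 0.226, 0.467, 1.03 and 0.114 CPM, against 2.94 CPM in the lowest KO-GFP heart. Such a gap, in the lower direction, was found for 8.52% of the 14597 genes tested.

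KO-YAP hearts were below KO-GFP hearts by a log2 difference of -2.24 for *Ankrd63* (95% interval -2.77 to -1.704), -3.26 for *Xdh* (-4.26 to -2.25), -2.97 for *Ahsg* (-4.20 to -1.73) and -4.25 for *Serpina3n* (-5.63 to -2.86). Without KO-GFP replicate 4 they came to -1.99, -2.87, -2.36 and -3.64, and without replicate 2 that of *Serpina3n* came to -5.17. On recovered reads edgeR gave -3.01, -3.98, -5.45 and -6.64. These differences use the same KO-GFP libraries that helped to choose the genes, and so carry no test. They also share those libraries with the differences from WT-GFP hearts above. In WT hearts, active YAP against *GFP* gave differences of -0.16 (-0.70 to 0.37), -0.68 (-1.69 to 0.33), 0.32 (-0.92 to 1.55) and 0.34 (-1.05 to 1.72) in the same order of genes. The value of *Xdh* came to -0.28 without WT-GFP replicate 1. *Serpina3n* was higher in each WT-YAP heart (0.431, 0.181, 0.383 and 0.656 CPM) than in any WT-GFP heart, as 2.12% of the genes tested were, but rested on 3 to 10 reads against 0 to 3. With the 8 WT-YAP and WT-GFP libraries alone in the fit, its interval was -0.018 to 0.69 in place of -1.05 to 1.72.

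KO-YAP and WT-YAP hearts are the pair of groups that the choice of genes did not compare, and the 4 genes were tested there. In WT-YAP replicates 1 to 4 *Ankrd63* was at 1.08, 0.965, 0.510 and 0.788 CPM, *Xdh* at 1.67, 2.35, 3.83 and 3.15 CPM, and *Ahsg* at 0.916, 0.482, 2.93 and 2.23 CPM. The KO-YAP hearts overlapped these levels for every gene. None of the 4 differed at an adjusted p-value under 0.05 (limma on log2(CPM + 1), Benjamini-Hochberg adjustment), where 0.0411% of genes, 6 of 14597, were called by limma, as many by edgeR and 71 by DESeq2. *Ankrd63* had a log2 difference of 0.31 (95% interval -0.22 to 0.85, adjusted p = 0.645 from limma). *Xdh* had -0.10 (-1.10 to 0.91, adjusted p = 0.955 from limma). *Ahsg* had -0.91 (-2.14 to 0.33, adjusted p = 0.561 from limma). *Serpina3n* had 0.02 (-1.37 to 1.40, adjusted p = 0.996 from limma).

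The comparison is not free of the choice of genes, since its spread is pooled over the 4 injected groups and the uneven KO-GFP hearts held 72.3% of that variance for *Ankrd63*, 57.8% for *Xdh*, 80.5% for *Ahsg* and 95.7% for *Serpina3n*. The p-values and the width of the intervals above were thus set mainly by libraries that the comparison does not hold. In a limma fit of the 8 KO-YAP and WT-YAP libraries alone, the intervals were narrower. They ran from -0.11 to 0.74 for *Ankrd63* (adjusted p = 0.448), from -0.62 to 0.43 for *Xdh* (adjusted p = 0.871), from -1.60 to -0.22 for *Ahsg* (adjusted p = 0.225) and from -0.45 to 0.48 for *Serpina3n* (adjusted p = 0.978). *Ahsg* and *Serpina3n* were below the filter in these 8 libraries, and their values come from the same fit over all 15327 listed genes, an alternative chosen after seeing the data. None of the 4 passed the threshold there either, but the interval of *Ahsg* by itself did not include 0.

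*Ahsg* was the gene lowest in KO-YAP hearts, with a mean of 0.342 ± 0.361 CPM against 1.64 ± 1.14 in WT-YAP and 1.01 ± 0.443 in WT-GFP hearts (SD, n = 4 each), and the groups overlapped. On recovered reads, edgeR put it at a log2 difference of -2.22 from WT-YAP hearts (adjusted p = 0.437) and DESeq2 at -2.26 (adjusted p = 0.337). Both tools also left *Ankrd63*, *Xdh* and *Serpina3n* uncalled, with adjusted p-values from 0.558 to 0.97.

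In order of group means, *Ankrd63* ran from KO-GFP (10.5 ± 5.03 CPM) through KO-YAP (1.31 ± 0.475) and WT-GFP (1.05 ± 0.198) to WT-YAP (0.835 ± 0.247). *Xdh* ran from KO-GFP (39.8 ± 27.9) through WT-GFP (5.75 ± 4.53) and WT-YAP (2.75 ± 0.939) to KO-YAP (2.52 ± 0.945). *Ahsg* ran from KO-GFP (15.3 ± 15.6) through WT-YAP and WT-GFP to KO-YAP. *Serpina3n* ran from KO-GFP (46.5 ± 42.8) through KO-YAP (0.459 ± 0.408) and WT-YAP (0.413 ± 0.195) to WT-GFP (0.112 ± 0.078). Below the KO-GFP group, neighbouring groups in these orders overlapped, except the WT-YAP and WT-GFP values of *Serpina3n*, and KO-GFP hearts overlapped their neighbour for *Xdh* and *Ahsg*. KO-YAP hearts differed from WT-GFP hearts by 0.15 (-0.38 to 0.68) for *Ankrd63*, -0.78 (-1.78 to 0.23) for *Xdh*, -0.59 (-1.83 to 0.64) for *Ahsg* and 0.36 (-1.03 to 1.74) for *Serpina3n*. In a fit of those 8 libraries alone the intervals were -0.26 to 0.56, -1.60 to 0.047, -1.12 to -0.063 and -0.088 to 0.80 in the same order.

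**Figure D3:**
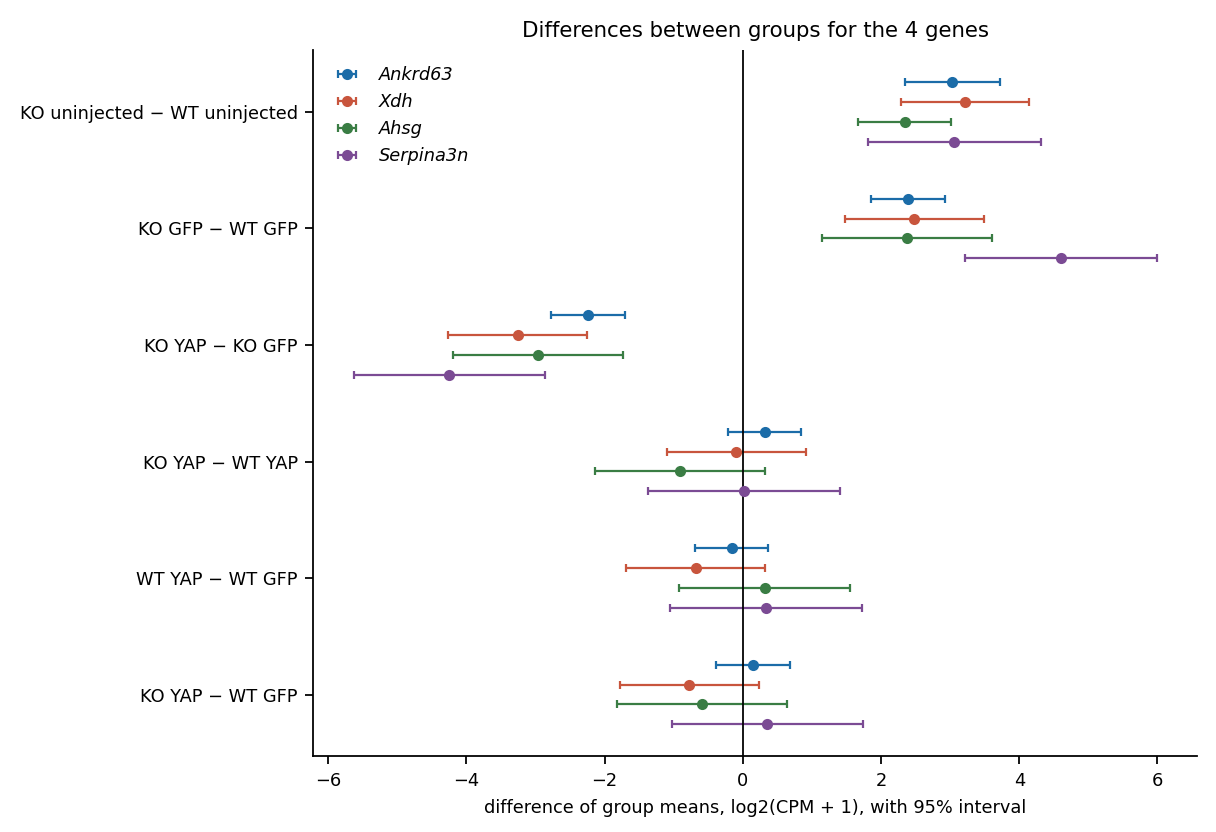
Difference of group means on the log2(CPM + 1) scale, with its 95% interval from limma, for 6 comparisons between groups of 4 libraries, with 1 colour per gene. All 4 genes lie right of 0 in *Xinβ* KO against WT hearts without active YAP and left of 0 in KO-YAP against KO-GFP hearts, and in this fit of all 16 injected libraries, whose spread comes mostly from KO-GFP hearts, each interval of the 3 lowest comparisons includes 0.

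The genes whose pattern was most like each member's over the 16 injected libraries were taken by Pearson's r of log2(CPM + 1), as a description. Such an r rests mainly on the gap between KO-GFP hearts and the rest. For *Ankrd63* they were *Trabd2b* (r = 0.980, and 0.972 over the 8 uninjected libraries), *Cldn15* (0.969 and 0.952), which encodes a claudin, and *Slc27a1* (0.962 and 0.945), which encodes a fatty acid transport protein. For *Xdh* they were *Anapc16* (0.956 and 0.893), of the anaphase-promoting complex, *Acer2* (0.952 and 0.980), an alkaline ceramidase, and *Dpep1* (0.947 and 0.931), a dipeptidase. For *Ahsg* they were *Phyhd1* (0.947 and 0.886), *Fmo2* (0.946 and 0.900), a flavin monooxygenase, and *Npr3* (0.938 and 0.954), the natriuretic peptide clearance receptor.

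For *Serpina3n* they were *Fkbp5* (0.977 and 0.945), a co-chaperone of the glucocorticoid receptor, *Ifitm1* (0.974 and 0.925), an interferon-induced membrane protein, and *Glul* (0.973 and 0.893), glutamine synthetase. Among the 4 members themselves r ran from 0.83, between *Ankrd63* and *Ahsg*, to 0.924, between *Ankrd63* and *Serpina3n*. *Trabd2b* was far more abundant than *Ankrd63*, at 163.8 ± 40.8 CPM in KO-GFP and 39.8 ± 3.71 CPM in WT-GFP hearts. *Fkbp5* stood at 75.1 ± 42.0 and 14.9 ± 3.03 CPM in these groups and at 14.5 ± 2.04 CPM in KO-YAP hearts.

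The nearest listed genes on the chromosome were compared too. Next to *Ankrd63*, *Pak6*, a protein kinase gene 1083 bp away, did not pass the test in uninjected hearts (log2 difference -0.03, adjusted p = 0.904 from limma) or under *GFP* (-0.30, adjusted p = 0.408). *Plcb2*, a phospholipase C gene 3554 bp away on the other side, rose in uninjected *Xinβ* KO hearts (1.304, adjusted p = 0.0091 from limma) and had 0.52 under *GFP* (adjusted p = 0.0757). Beside *Xdh*, *Ehd3*, 51801 bp away, rose in uninjected *Xinβ* KO hearts by 0.57 (adjusted p = 0.0478 from limma, lost when any of 6 of the 8 libraries was left out), had 0.56 under *GFP* (adjusted p = 0.0652) and was lower in KO-YAP than in KO-GFP hearts (-0.82, adjusted p = 0.0088). *Memo1*, on the other side, had 0.02 and 0.08 (adjusted p = 0.904 and 0.54). Beside *Ahsg*, *Dnajb11* had 0.20 and -0.09 (adjusted p = 0.42 and 0.658 from limma) and *Eif4a2* -0.07 and 0.16 (adjusted p = 0.747 and 0.428). *Dicer1*, on the far side of *Serpina3n*, had -0.34 and -0.06 (adjusted p = 0.641 and 0.821 from limma).

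*Serpina3g*, 164790 bp from *Serpina3n*, is of the same clade. It was at 5.78, 7.21, 27.3 and 7.50 CPM in uninjected *Xinβ* KO hearts and at 0.362, 0.278, 0.138 and 0.577 CPM in WT hearts, a log2 difference of 3.02. It passed the filter only through the *Xinβ* KO libraries, so the difference is a description. Replicate 3 was highest, as it was for *Serpina3n*. Under *GFP* it had means of 15.8 ± 8.71 CPM in *Xinβ* KO and 3.95 ± 6.37 CPM in WT hearts, and 0.129 ± 0.099 CPM in KO-YAP hearts (SD, n = 4), below the filter for injected libraries. The Serpina3 genes of this cluster are close copies, so reads may be split between them in ways that are not given in the sources used here. Of the 23 other clade A serpins, *Serpina3g* was the single one tested in uninjected hearts.

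Gene lists were set around each member. In uninjected *Xinβ* KO hearts 3.23% of the genes tested were called higher and 3.46% lower, and under *GFP* 6.43% and 7.22%. Of 28 other genes of purine breakdown, 20 were tested in each set, of which 2 rose in uninjected hearts and 5 under *GFP*. The 2 were *Aox1*, an aldehyde oxidase related to xanthine oxidoreductase (log2 difference 1.75, adjusted p = 0.0332 from limma), and *Gda*, guanine deaminase (1.62, adjusted p = 0.0127). Under *GFP* they were at 2.06 (adjusted p = 3.4e-05 from limma) and 1.27 (adjusted p = 0.00263), joined by *Mocs1*, of molybdenum cofactor synthesis (1.15, adjusted p = 0.00167), and *Nt5e*, an ecto-nucleotidase (1.10, adjusted p = 0.0032). The uninjected count of 2 was 4 without *Xinβ* KO replicate 4, and *Aox1* lost its uninjected call when any of 6 of the 8 libraries was left out.

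*Pnp*, purine nucleoside phosphorylase, and *Ada*, adenosine deaminase, did not pass the test, at 0.13 and 0.10 and at -0.08 and -0.04 in the uninjected and *GFP* comparisons. *Uox*, the gene of urate oxidase, was not listed in either set. The median over the 20 genes was 0.11 in uninjected hearts and 0.12 under *GFP*, beside 0.00 and -0.01 over all genes tested. Of 16 genes of purine making and salvage, 1 passed, *Ppat*, lower under *GFP* (-0.59, adjusted p = 0.045 from limma, lost with 10 of the 16 libraries left out in turn), and *Hprt* stood at 0.25 (adjusted p = 0.156) and 0.17 (adjusted p = 0.224). The urate transporters *Abcg2* and *Slc2a9* had 0.37 (adjusted p = 0.092 from limma) and 0.63 (adjusted p = 0.0511) in uninjected hearts, and under *GFP* *Abcg2* rose by 0.45 (adjusted p = 0.0257 from limma, lost with 5 of the 16 libraries left out in turn) where *Slc2a9* had 0.40 (adjusted p = 0.125).

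Of 42 other acute-phase genes and their regulators, 21 were tested in uninjected hearts and 13 of them were called higher in *Xinβ* KO, with a median log2 difference of 1.08. Of the 13, *A2m*, *C3*, *Hp* and *Lcn2* reached the filter only with the *Xinβ* KO libraries, so their differences are a description. Without these 4, 9 of 17 rose, with a median of 0.74. Under *GFP* 12 of 18 rose, with a median of 1.16. The largest differences in uninjected hearts were those of *Mt2*, metallothionein 2 (2.95, adjusted p = 0.00163 from limma), *C3*, complement component 3 (2.86), *Hp*, haptoglobin (2.34), and *Lcn2*, lipocalin 2 (2.32). Under *GFP*, among genes that passed the filter, they were *C3* (2.86, adjusted p = 0.0446 from limma, lost with 14 of the 16 libraries left out in turn) and *Mt2* (2.61, adjusted p = 3.0e-04). *Cp*, ceruloplasmin (1.71, adjusted p = 2.9e-04 from limma), and *Lbp*, the lipopolysaccharide-binding protein (1.70, adjusted p = 0.00417), followed. *Hp* (3.005) and *Lcn2* (2.58) were below the filter there, and their values come from the fit over all listed genes. *Il6ra* and *Il6st*, the interleukin-6 receptor genes, passed in neither, with 0.46 and 0.07 uninjected and 0.55 and 0.64 under *GFP*. This list was written with earlier results of these data known, so its count is no independent evidence.

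Of 12 other serpins outside clade A tested under *GFP*, 3 passed. *Serpinb6b* rose by 1.35 (adjusted p = 3.98e-04 from limma), *Serpine2*, protease nexin 1, rose by 0.46 (adjusted p = 0.0054), and *Serpinb8* was lower (-0.87, adjusted p = 0.0177, lost without WT-GFP replicate 2). Of the 11 tested in uninjected hearts *Serpine2* passed (0.66, adjusted p = 0.00687 from limma). Among the serine proteases of leukocytes, which serpins of this kind inhibit, *Gzmb* and *Elane* were not listed. Those that were tested fell, all of them of mast cells. *Cma1*, chymase, had -1.77 (adjusted p = 0.00173 from limma) and *Tpsb2*, tryptase, -1.93 (adjusted p = 0.00352) in uninjected hearts, with -1.89 (adjusted p = 2.0e-04) and -1.65 (adjusted p = 4.98e-04) under *GFP*. *Mcpt4*, another mast cell chymase, had -1.68 under *GFP* (adjusted p = 8.1e-05 from limma).

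Around *Ahsg*, the cystatin superfamily had 4 genes tested in uninjected hearts. The stefins *Stfa2* and *Stfa1*, known from neutrophils, had differences of 2.22 and 1.51, given as a description because both reached the filter only with the *Xinβ* KO libraries, while *Cst3*, cystatin C, had 0.35 (adjusted p = 0.287). Of 9 mineralisation genes tested, *Mgp*, matrix Gla protein, an inhibitor of calcification as fetuin-A is, rose in uninjected hearts by 0.79 (adjusted p = 0.0153 from limma) and under *GFP* by 0.73 (adjusted p = 0.0117). Under *GFP* *Gas6* (0.46, adjusted p = 0.00301 from limma) rose as well, and *Alpl*, tissue-nonspecific alkaline phosphatase, fell (-1.32, adjusted p = 0.00183). The osteopontin gene *Spp1* had 1.41 under *GFP*, where it reached the filter only with the KO-GFP libraries. The uninjected call of *Mgp* was lost without WT replicate 1 or 3.

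Around *Ankrd63*, 32 other genes named for an ankyrin repeat domain were tested in each set, and few passed. *Ankrd23*, of the sarcomere's titin-binding ankyrin proteins, was lower in uninjected *Xinβ* KO hearts (-1.19, adjusted p = 0.0362 from limma) and under *GFP* (-1.06, adjusted p = 0.00727). *Ankrd11* rose by 0.31 (adjusted p = 0.0134 from limma) and *Ankrd42* was lower (-0.45, adjusted p = 0.0396, lost with 6 of the 16 libraries left out in turn) under *GFP*. *Ankrd1*, the cardiac ankyrin repeat protein that is a known YAP target, had -1.61 (adjusted p = 0.102 from limma) and -0.03 (adjusted p = 0.946). The uninjected call of *Ankrd23* held only when *Xinβ* KO replicate 4 was the library left out, whereas its call under *GFP* held with each of the 16 left out.

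Of 16 genes known to respond to glucocorticoids, 12 rose in uninjected *Xinβ* KO hearts and 12 under *GFP*, with medians of 1.58 and 1.298. Over all genes tested, 3.23% and 6.43% were called higher. The uninjected count was 9 without WT replicate 3. This list too was written with earlier results of these data known, so its counts are no independent evidence. The largest uninjected rises were *Hif3a* (3.33, adjusted p = 0.00269 from limma), *Zbtb16* (2.76, adjusted p = 0.0467), *Arrdc2* (2.35, adjusted p = 0.00419) and *Fkbp5* (2.11, adjusted p = 0.00752). Under *GFP* they were *Hif3a* (3.18, adjusted p = 0.00122 from limma), *Zbtb16* (2.84, adjusted p = 0.00851), *Fam107a* (2.09, adjusted p = 2.9e-04) and *Fkbp5* (2.06, adjusted p = 8.0e-04). The uninjected call of *Zbtb16*, a zinc finger transcription factor, was lost when any of 7 of the 8 libraries was left out. *Dusp1* and *Errfi1* passed in neither, with -0.22 and 0.12 uninjected and 0.07 and 0.12 under *GFP*.

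**Figure D4:**
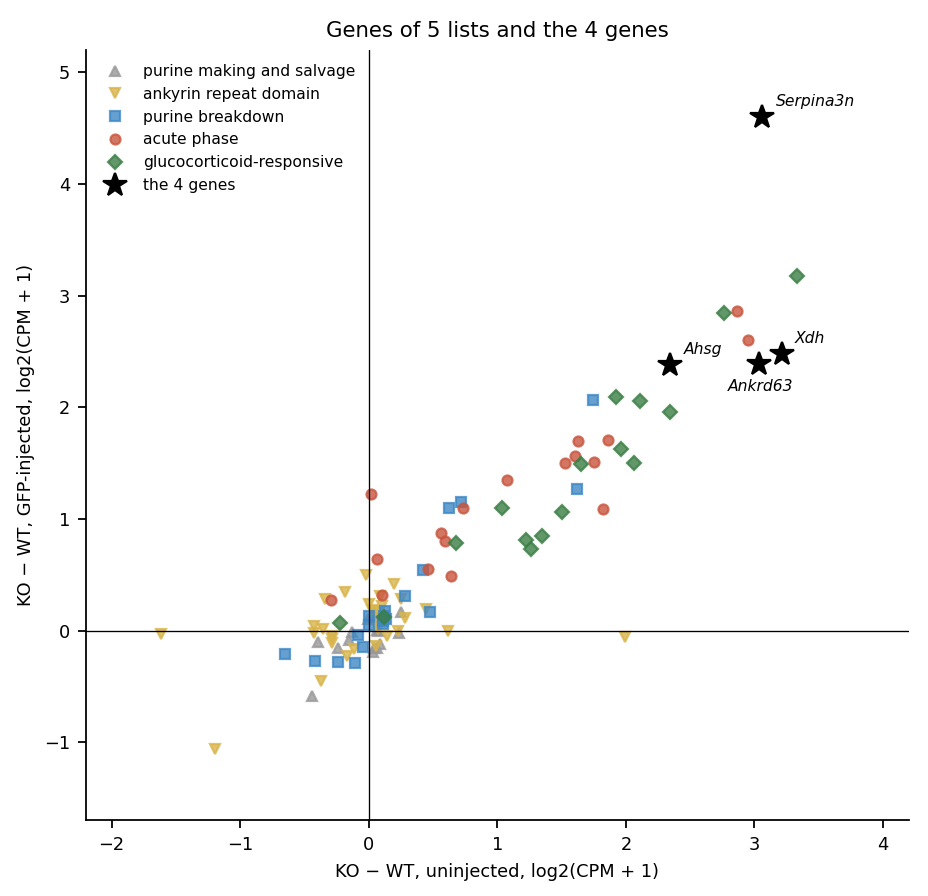
Log2(CPM + 1) difference between *Xinβ* KO and WT hearts without injection (horizontal axis) and under *GFP* (vertical axis) for genes of 5 lists tested in both sets, coloured by list, with the 4 genes as black stars. Most acute-phase and glucocorticoid-responsive genes spread toward the upper right with the 4 genes, whereas genes of purine making and salvage and most of the other 2 lists lie around 0. *Ankrd1* (-1.61), *Ankrd23* (-1.19) and *Ankrd49* (1.99) lie apart on the horizontal axis. *Ankrd49* reached the uninjected filter only with the *Xinβ* KO libraries and was not called, so its value is a description.

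Between KO-YAP and KO-GFP hearts, 7.85% of the genes tested were called higher and 6.92% lower. Of the same lists, 10 of 18 acute-phase genes, 9 of 16 glucocorticoid-responsive genes and 5 of 20 genes of purine breakdown were lower, with medians of -1.10, -0.79 and -0.22. The count of 9 was 5 without KO-GFP replicate 1, and *C3* lost its call with 4 of the 16 libraries left out in turn. *Mt2* (-3.02, adjusted p = 7.9e-05 from limma), *C3* (-3.36, adjusted p = 0.0195), *Fkbp5* (-2.09, adjusted p = 6.4e-04) and *Aox1* (-2.00, adjusted p = 3.5e-05) fell, and *Cebpb*, a transcription factor of the acute phase, had -0.50 (adjusted p = 0.204 from limma). The mast cell proteases moved the opposite way, *Cma1* by 1.83 (adjusted p = 2.1e-04 from limma) and *Tpsb2* by 1.43 (adjusted p = 0.0013). These counts and p-values rest on the same KO-GFP libraries as the differences from WT-GFP hearts. The called genes named here were picked for large differences between *Xinβ* KO and WT hearts, so their calls are no independent evidence. Between KO-YAP and WT-YAP hearts the medians of these 3 lists were 0.06, 0.36 and 0.02, beside 0.00 over all genes tested.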

How the data were processed

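RNA-seq of mouse hearts was deposited as 2 tables, 8 uninjected and 16 injected libraries. Per the submitters' processing notes and the paper's methods, the authors used cutadapt 2.3 for trimming, HISAT2 2.1.0 for alignment to GRCm38, StringTie 1.3.4 for transcripts and edgeR 3.26.1 for CPM, for a Fisher's exact test. The deposited values are a normalized signal, since columns sum to 942566 to 1134439, and are read here as CPM on TMM-scaled library sizes. All values were whole multiples of the worth of 1 read, so reads were recovered (tolerance 0.05 reads, or 1e-04 of larger counts).

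Groups follow the labels. Genes with over 1 CPM in at least 4 of 8 or 8 of 16 libraries were compared by limma 3.58.1 with a trend on log2(CPM + 1), with Benjamini-Hochberg adjustment and calls at an adjusted p-value under 0.05. A model with 4 group means held the 16 injected libraries. Tables were normalized separately and compared only within themselves. On simulated counts for KO-YAP against WT-YAP, limma recovered 80 of 100 genes changed 2-fold and 100 of 100 changed 4-fold among 14708. The simulation gave every group the same spread and changed only genes above a minimum mean level. It does not show how small a difference could be found for the members, which were low in both groups and uneven in KO-GFP hearts. edgeR 4.0.16 and DESeq2 1.42.0, in R 4.3.3, were run on recovered reads as alternatives, beside other scalings, filters and pseudocounts, a block and left-out libraries. Named genes were the 4 members, *Xirp2*, up to 4 called genes per list by size of change, well-known uncalled ones, the 3 most alike in pattern, and neighbours in rank and on the chromosome. The members and lists were chosen with earlier results of these data known. Symbols come from GENCODE M21, which matched all but 12 and 13 identifiers, and start-site windows from RefSeq. No pair of replicates differed by as little as sampling noise.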

Additional observations from a re-analysis of the deposited data

Results flagged for a closer look

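*Serpina3n* stood far above the other uninjected *Xinβ* KO hearts in replicate 3, at 46.0 CPM beside 5.23 to 10.9 CPM in the other 3. Among 24 groups of 4 libraries examined in this way it was the only one in which 1 library lay so far out, and chance marks about 5% of groups.

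For the 4 genes, the difference between active YAP and *GFP* was set side by side in *Xinβ* KO and WT hearts. On the log2(CPM + 1) scale, the difference in *Xinβ* KO hearts minus that in WT hearts was -2.07 for *Ankrd63*, -2.58 for *Xdh*, -3.28 for *Ahsg* and -4.59 for *Serpina3n*. These values are a description with no test, because the *GFP*-injected libraries had served to choose the genes for being high in *Xinβ* KO hearts.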

How the results depend on the processing

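For the 4 genes, 567 values under other settings stayed within the spread between replicates or on the same side of the test, 32 moved and 6 reversed. With a pseudocount of 0.1, edgeR and DESeq2 in turn, the uninjected *Xinβ* KO minus WT difference of *Ankrd63* was 3.63, 3.73 and 3.75 and that of *Serpina3n* 4.28, 4.99 and 5.01, and *Ahsg* had 2.93 in edgeR and 2.94 in DESeq2. Under *GFP*, in the same order, *Ankrd63* had 3.10, 3.32 and 3.33, *Serpina3n* 6.97, 8.61 and 8.70, and *Ahsg* 3.904 and 3.92 by the 2 tools. From KO-GFP to KO-YAP, *Ankrd63* had -2.86, -3.01 and -3.01, *Ahsg* -4.77, -5.45 and -5.49, and *Serpina3n* -5.76, -6.64 and -6.67. In WT hearts under active YAP, *Serpina3n* had 1.80 in edgeR and 1.88 in DESeq2. For KO-YAP minus WT-GFP, *Ahsg* had -1.66, -1.55 and -1.56 and *Serpina3n* 1.96 and 2.03 by the 2 tools. Of the tested differences between KO-YAP and WT-YAP, *Xdh* turned to 0.0023 with the *Ddx3y* level as a covariate, chosen after seeing the data, and ranged from -0.25 to 0.050 with libraries left out. *Serpina3n* turned to -0.071 with a pseudocount of 0.1 and ranged from -0.15 to 0.13. The cause was not tested.

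No pairing by replicate number was seen, as correlations of same-numbered deviations ran from -0.19 to 0.10. These values cannot show which libraries shared a litter. With a replicate block, adjusted p-values of the 4 genes between KO-YAP and WT-YAP hearts were 0.66, 0.96, 0.57 and 0.996, and the uninjected calls, 504 higher and 540 lower (1044 in all), became 201 higher and 184 lower. The 1044 became 1951 in DESeq2, 1927 with the *Ddx3y* covariate and 379 to 2098 with 1 library left out. The *GFP* count of 1993 was 962 in a fit of those 2 groups alone and fell to 1262 without KO-GFP replicate 4. From KO-GFP to KO-YAP, 2156 became 1282 in a fit of 2 groups. Between the hearts under active YAP, 6 became 71 in DESeq2, 15 in a fit of 2 groups and 2 to 15 with 1 library left out. Levels of a few reads limit *Serpina3n* in all groups but *Xinβ* KO without active YAP. Intervals among injected hearts rest on a spread pooled with the uneven KO-GFP hearts.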
